A study of Mus musculus with 8 samples.

Results

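The paired immunoglobulin-like receptors of myeloid cells were followed across 8 RNA-seq libraries of transferred mouse CD4 T cells, as the 10 genes Sirpb1a, Pira6, Trem1, Trem2, Sirpa, Pirb, Pilra, Cd300a, Cd300lf and Siglece. Members were found by an exact match of the gene symbol, which gave 9 of the 10 among the 11354 genes of the count table, and Trem2 was not analysed here. In 4 libraries the labels give Nlrp6 knock-out CD4 T cells as the transferred cells, and in the other 4 libraries wild-type CD4 T cells. All hosts were RAG-/- mice, the strain background of all samples was Black6, and both labels number the hosts 1, 2, 4 and 5. The libraries are called KO 1, KO 2, KO 4 and KO 5, and WT 1, WT 2, WT 4 and WT 5, after label and host. According to the design text equal numbers of the 2 kinds of T cell were transferred. The source labels name the host spleen and the extraction protocol names the colonic lamina propria, so the tissue is uncertain. RAG-deficient mice lack T and B lymphocytes but keep their myeloid cells, and the labels describe no sort of the recovered cells.

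Nlrp6 went against the labels, with 487, 329, 477 and 648 counts in KO 1, KO 2, KO 4 and KO 5, against 5, 3, 3 and 8 counts in WT 1, WT 2, WT 4 and WT 5. Its log2 fold change was 6.70 ± 0.32 (edgeR adjusted p = 4.07e-06). Every direction given here is therefore that of libraries labelled knock-out over libraries labelled wild type, and not of a genotype. The T cell label fitted the markers, since Cd4 was at 1222 ± 174 CPM in libraries labelled knock-out and 1446 ± 112 CPM in libraries labelled wild type (SD, n = 4 each). CPM are counts scaled to library size with TMM factors. Of 9 measured T cell markers 0 rose and 0 fell in edgeR's test, while 3 were lower at an unadjusted p under 0.05, 3 were called lower by limma-voom or without KO 4, and DESeq2 called 1 lower (Cd2). Their summed levels were 6667 to 7118 CPM in libraries labelled knock-out and 6978 to 8081 CPM in libraries labelled wild type. Library totals ranged from 35198192 to 40310721 counts.

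Paired receptors come as relatives with similar extracellular immunoglobulin domains and opposite signals. Inhibitory members such as Sirpa, Pirb and Pilra carry tyrosine motifs (ITIMs) in a long cytoplasmic tail, which recruit the phosphatases SHP-1 and SHP-2, encoded by Ptpn6 and Ptpn11. Activating members such as Sirpb1a, the Pira receptors and the Trem receptors have short tails and signal through adaptors with an activating motif (ITAM), namely DAP12, encoded by Tyrobp, or the Fc receptor gamma chain, encoded by Fcer1g. The families are best known from macrophages, monocytes, dendritic cells and neutrophils, including those of the gut wall, where they set how strongly such cells respond.

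The likeness between partners is visible in the transcripts and limits what a count per gene can tell. The longest exactly shared stretch was sought only for Pira6 with Pirb, Sirpb1a with Sirpb1b, and Pilra with Pilrb1, in the relative's coding exons. These stretches are printed here because a single read of 81 bases from any of them cannot be given to 1 gene. They come from GENCODE M21 transcripts on GRCm38, on the minus strand, read 5′ to 3′. The first is 169 bases of exon 8 of Pirb (chr7:3716034-3716202) that Pira6 also holds, the second is 140 bases of exon 4 of Sirpb1b (chr3:15542234-15542373) that Sirpb1a also holds, and the third is 121 bases of exon 2 of Pilrb1 (chr5:137857248-137857368) that Pilra also holds.
Pira6 and Pirb: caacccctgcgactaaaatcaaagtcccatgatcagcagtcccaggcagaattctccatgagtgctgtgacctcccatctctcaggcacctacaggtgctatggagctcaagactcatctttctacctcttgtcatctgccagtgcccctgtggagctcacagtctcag
Sirpb1a and Sirpb1b: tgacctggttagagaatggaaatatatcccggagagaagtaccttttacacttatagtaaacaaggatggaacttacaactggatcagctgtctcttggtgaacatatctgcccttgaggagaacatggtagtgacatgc
Pilra and Pilrb1: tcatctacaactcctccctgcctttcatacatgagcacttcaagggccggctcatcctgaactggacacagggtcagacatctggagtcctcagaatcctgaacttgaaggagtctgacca

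Cut into all windows of 81 bases, 31% of the Sirpb1a transcript (440 of 1419 windows) occurred exactly in another gene, mostly in Sirpb1c (25.3%) and Sirpb1b (19.5%). For Pirb the share was 29.8% (1116 of 3744 windows), led by Gm14548 (17.1%) and Pira2 (15.9%), and the gene model of Pira6 held 5.77%. For Pira6 it was 19% (336 of 1772 windows), of which Pirb held 12.2%. The Entrez identifier of Pira6 leads in GENCODE M21 to Gm15931, annotated there as an unprocessed pseudogene, so the counts of Pira6 and Pirb are uncertain with respect to each other and to the other Pira genes. Pilra shared 17.4% of its windows, but 15.6% lay in an overlap of 670 bases with Zcwpw1 on the opposite strand and only 1.76% in its partner Pilrb1. Zcwpw1 itself was at 2.02 ± 0.0586 CPM in libraries labelled knock-out and 1.99 ± 0.257 CPM in libraries labelled wild type (SD, n = 4 each). Cd300lf shared 2.99% with Cd300ld, Cd300a 1.31% with Cd300c2, and Sirpa, Trem1 and Siglece shared 0 windows. Cd300lf also lies across Rab37 on the opposite strand, but its transcript shared no window of 81 bases with Rab37. Rab37 was at 58.8 ± 8.92 CPM in libraries labelled knock-out and 59.97 ± 4.74 CPM in libraries labelled wild type. The strand setting of the authors' counting is not given in the sources used here.

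**Figure D1:**
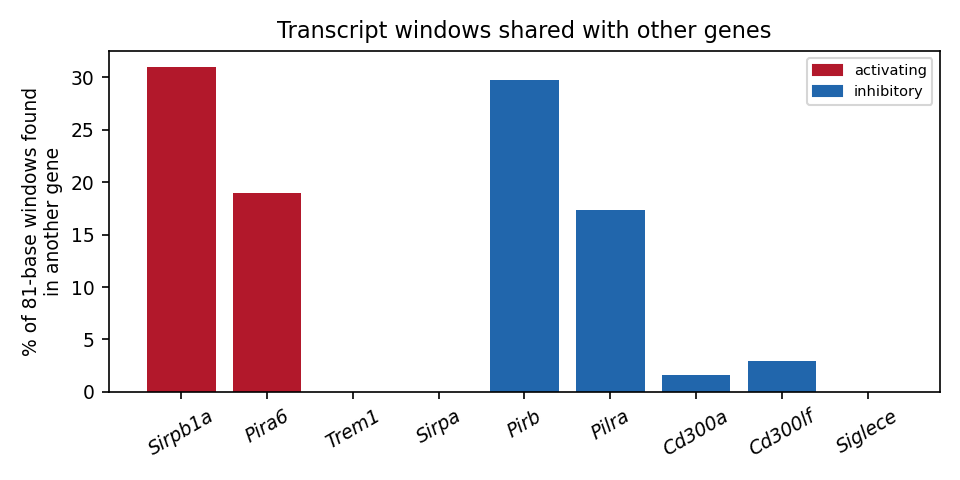
Share of each member's transcript windows of 81 bases, in percent, that occur exactly in the transcripts of another gene (GENCODE M21, either strand), with activating members in red and inhibitory members in blue. Sirpb1a (31%) and Pirb (29.8%) share most, and Trem1, Sirpa and Siglece share 0.

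All 9 measured members rose in the libraries labelled knock-out, the 3 activating ones and the 6 inhibitory ones, and 0 fell. By the same test, edgeR's quasi-likelihood test with an adjusted p below 0.05 over all genes, 6.2% of the 11354 genes were higher and 3.84% lower. In 9 of 9 members the lowest CPM under the knock-out label exceeded the highest under the wild-type label, against 8.6% of all genes. The rise was at least 8-fold in 8 of 9 members, against 1.3% of all genes, and the median log2 fold change was 3.48, against -0.003 over all genes. These counts describe the members and support nothing further. The deposited table holds no gene whose fourth-highest CPM was below 0.987, and only Sirpa had 1 CPM or more in all 4 libraries labelled wild type. The other 8 were in the table through the libraries labelled knock-out, and 7 of them had no library labelled wild type at 1 CPM. In bulk RNA fewer cells of a type and less RNA per cell cannot be told apart.

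Markers of macrophages and monocytes moved with the receptors. Of 20 such markers 17 rose and 0 fell, the median log2 fold change was 3.33, and their summed level was 879 to 1723 CPM in libraries labelled knock-out and 543 to 669 CPM in libraries labelled wild type. Those of smallest p were Spi1, Fcgr4 (log2 fold change 4.11), Csf1r (3.95) and Fcgr3 (3.36). The monocyte receptor Ccr2, the chemokine receptor Cx3cr1 and the lysosomal protein gene Cd68 did not pass the test and carried part of that sum under both labels. Ccr2 was at 456 ± 49.0 CPM in libraries labelled knock-out and 428 ± 63.2 CPM in libraries labelled wild type, where it was most of the sum. Dendritic cell and MHC class II markers, of which 6 of 8 rose, summed to 455 to 1308 CPM in libraries labelled knock-out and 63.7 to 111 CPM in those labelled wild type. They were led by Cd74 (3.12), H2-Eb1 (3.71), H2-Aa (3.62) and H2-Ab1 (3.68), all genes of the MHC class II pathway. For Batf3, 9 of the 16 alternatives ended the call, leaving 5. The dendritic cell genes Itgax (0.45, edgeR adjusted p = 0.405) and Zbtb46 (0.10, edgeR adjusted p = 0.833) did not pass. Flt3, Xcr1, Clec9a and Cd209a were not analysed here. Neutrophil markers, of which 5 of 9 rose, summed to 168 to 308 CPM in libraries labelled knock-out and 122 to 168 CPM in those labelled wild type. They were led by Csf3r (3.12), Cxcl2 (2.97), Clec4d (2.70) and S100a8 (1.87), and 9 of the 16 alternatives ended the call of S100a9, whereas DESeq2 called 7 markers. Il1r2 carried much of the neutrophil sum, at 114 ± 33.4 CPM in libraries labelled knock-out and 122 ± 22.4 CPM in those labelled wild type. Neither Il1r2 nor Mmp9, Ngp and Ltf passed edgeR's test. No measured marker of these 3 lists was at 0. Of the measured markers of natural killer cells (3), B and plasma cells (1), mast cells (1) and epithelium (5), 0 rose and 0 fell in edgeR's test. At an unadjusted p under 0.05 the mast cell gene Kit was higher and the epithelial gene Lgals4 lower, and DESeq2 called Kit higher. Without WT 5, edgeR called the epithelial gene Cdh1 (1.37, adjusted p = 0.0051) and the natural killer gene Klrk1 (1.13, adjusted p = 0.0388) higher. The part of such cells in the receptor values was not tested.

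Among the activating members, Sirpb1a, a SIRP receptor that signals through DAP12, had the largest fold change. It was at 2.33, 3.54, 7.48 and 4.99 CPM in KO 1, KO 2, KO 4 and KO 5, from 90, 139, 255 and 198 counts, against 0.122, 0.153, 0.202 and 0.235 CPM in WT 1, WT 2, WT 4 and WT 5, from 5, 6, 8 and 9 counts. The groups did not overlap, and all 4 libraries labelled wild type held fewer than 10 counts. The log2 fold change was 4.66 ± 0.43 (SE, edgeR adjusted p = 0.00028), the rank 6 of 11354 genes by fold change. Sirpb1a (Entrez 320832) lies on the minus strand of chromosome 3 at 15371661 to 15426522 (GRCm38).

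Pira6, of the PIR-A receptors that pair with the Fc receptor gamma chain, was at 2.77, 3.87, 7.04 and 4.26 CPM in KO 1, KO 2, KO 4 and KO 5, against 0.294, 0.153, 0.152 and 0.339 CPM in WT 1, WT 2, WT 4 and WT 5. WT 2 and WT 4 were the lowest, with 6 counts each, and KO 4 was the highest. Its log2 fold change was 4.24 ± 0.38 (edgeR adjusted p = 0.000241). Trem1, which amplifies inflammatory responses of neutrophils and monocytes through DAP12, had higher counts under the wild-type label, 22 to 36 per library. It was at 4.24, 6.04, 11.9 and 6.43 CPM in KO 1, KO 2, KO 4 and KO 5, against 0.881, 0.561, 0.683 and 0.809 CPM in WT 1, WT 2, WT 4 and WT 5. KO 4 stood highest and KO 1 lowest, and the libraries labelled wild type lay close together. The log2 fold change of Trem1 was 3.28 ± 0.33 (edgeR adjusted p = 0.000415), the smallest of the 3 activating members. Pira6 lies on the plus strand of chromosome 7 at 4274189 to 4282645 and Trem1 on the plus strand of chromosome 17 at 48232713 to 48246927.

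Among the inhibitory members, Sirpa and Pirb were the most abundant. Sirpa, the receptor through which CD47 on other cells restrains phagocytosis, was at 16.7, 30.4, 51.2 and 36.8 CPM in KO 1, KO 2, KO 4 and KO 5, against 3.62, 2.73, 1.85 and 3.21 CPM in WT 1, WT 2, WT 4 and WT 5. The lowest library labelled knock-out was more than 4 times the highest one labelled wild type. Its log2 fold change was 3.56 ± 0.34 (edgeR adjusted p = 0.000374). Pirb, an ITIM receptor that binds MHC class I, was at 12.3, 19.7, 37.4 and 23.3 CPM in KO 1, KO 2, KO 4 and KO 5, against 2.18, 1.55, 0.860 and 1.85 CPM in WT 1, WT 2, WT 4 and WT 5. As for Sirpa, KO 4 was the highest library labelled knock-out and WT 4 the lowest labelled wild type. Its log2 fold change was 3.84 ± 0.38 (edgeR adjusted p = 0.000386). Sirpa lies on the plus strand of chromosome 2 at 129591042 to 129632228 and Pirb on the minus strand of chromosome 7 at 3712505 to 3720382.

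Pilra, the inhibitory partner of Pilrb1 and a receptor for sialylated glycoproteins, was at 2.98, 5.40, 12.3 and 7.26 CPM in KO 1, KO 2, KO 4 and KO 5, against 0.857, 0.688, 0.582 and 0.705 CPM in WT 1, WT 2, WT 4 and WT 5. KO 4 was 4.12 times KO 1, the widest spread of any member under the knock-out label. The log2 fold change was 3.29 ± 0.41 (edgeR adjusted p = 0.00094), and the gene lies on the minus strand of chromosome 5 at 137821952 to 137836278. The 2 CD300 members, on chromosome 11, bind lipids of cell membranes. Cd300a was at 2.59, 4.76, 5.66 and 5.24 CPM in KO 1, KO 2, KO 4 and KO 5, against 0.367, 0.357, 0.430 and 0.470 CPM in WT 1, WT 2, WT 4 and WT 5. Its libraries KO 2, KO 4 and KO 5 lay close together with KO 1 below them, and its log2 fold change was 3.48 ± 0.28 (edgeR adjusted p = 0.000128). Cd300lf, in mice also the entry receptor of norovirus, was at 3.80, 4.64, 9.83 and 5.98 CPM in KO 1, KO 2, KO 4 and KO 5, against 0.539, 0.459, 0.734 and 0.966 CPM in WT 1, WT 2, WT 4 and WT 5. WT 5 came nearest to the other label but stayed below all of its libraries. The log2 fold change of Cd300lf was 3.16 ± 0.35 (edgeR adjusted p = 0.000512). Cd300a spans 114889152 to 114901946 on the plus strand and Cd300lf 115116214 to 115135372 on the minus strand.

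Siglece, an ITIM receptor for sialic acids on neutrophils and macrophages, had the smallest change. It was at 1.19, 1.38, 2.58 and 1.89 CPM in KO 1, KO 2, KO 4 and KO 5, from 46, 54, 88 and 75 counts, against 0.637, 0.561, 0.607 and 0.679 CPM in WT 1, WT 2, WT 4 and WT 5, from 26, 22, 24 and 26 counts. The groups did not overlap, and the libraries labelled wild type differed by no more than 1.21 times. The log2 fold change was 1.49 ± 0.27 (edgeR adjusted p = 0.00683), the only one of the 9 below 8-fold. Siglece lies on the minus strand of chromosome 7 at 43648882 to 43672044.

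**Figure D2:**
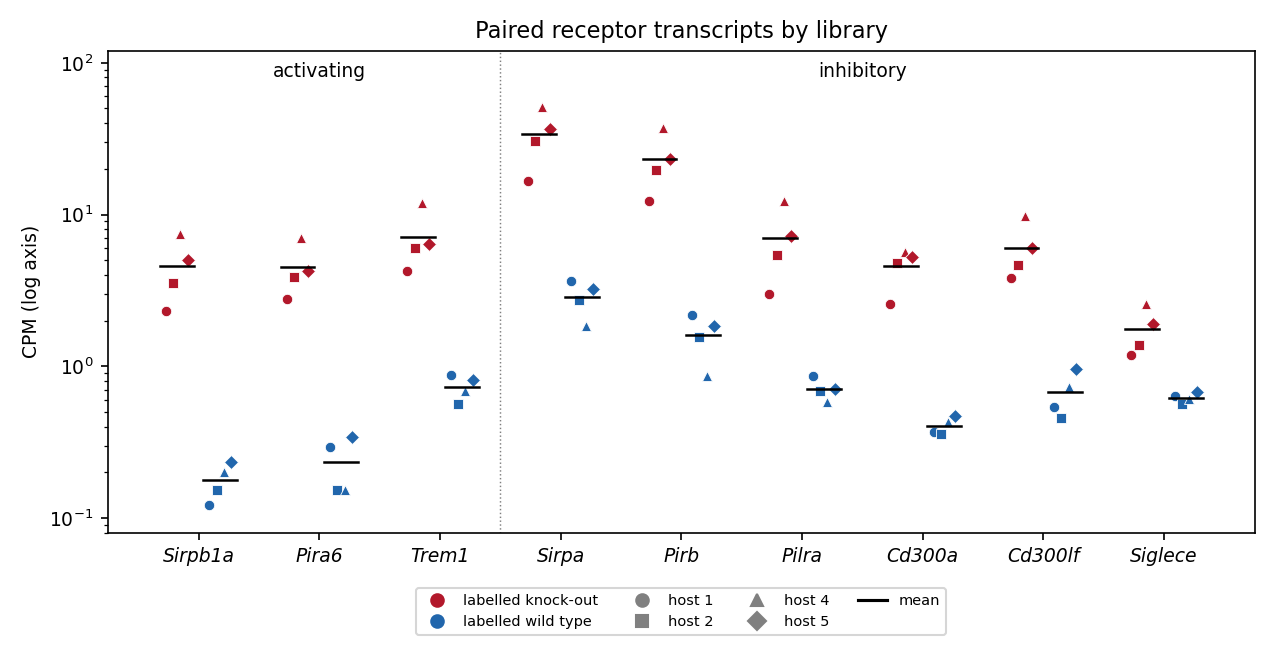
CPM of each measured member in each library on a log axis, libraries labelled knock-out in red left of those labelled wild type in blue, with symbols for the host number and a line at the mean of 4 libraries. KO 4 is the highest and KO 1 the lowest library labelled knock-out for all 9 members, and the groups overlap for none of them.

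The members varied together within the libraries labelled knock-out. KO 4 was the highest and KO 1 the lowest of these libraries in 9 of 9 members, and the ratio of highest to lowest ran from 2.17 for Siglece to 4.12 for Pilra. Relative to the mean of their label on the log2 scale, the members averaged -0.74, -0.15, 0.74 and 0.14 in KO 1, KO 2, KO 4 and KO 5, and the macrophage and monocyte markers -0.75, -0.10, 0.62 and 0.23. No single order held under the wild-type label, where WT 5 was highest for 5 members and WT 1 for 4, and WT 2 and WT 4 were lowest for 4 each. In the sample descriptions KO 4 and KO 5 carry a different number from the other 6 libraries (8 in place of 7), whose meaning is not stated. With that number as a term, the label difference rests on KO 1 and KO 2 under the knock-out label, and the fold changes lay between 1.04 for Siglece and 4.02 for Sirpb1a on the log2 scale, all 9 still past the test (largest edgeR adjusted p = 0.0341).

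Per kilobase of the deposited gene length (RPKM), Sirpa stood first under both labels, at 7.91 ± 3.35 in libraries labelled knock-out and 0.668 ± 0.179 in libraries labelled wild type (SD, n = 4 each). Pirb followed at 7.06 ± 3.21 RPKM in libraries labelled knock-out and 0.491 ± 0.171 RPKM in those labelled wild type, and then Cd300lf. By the deposited lengths Pira6 was last under both, at 0.826 ± 0.335 RPKM in libraries labelled knock-out and 0.0432 ± 0.0178 RPKM in libraries labelled wild type, but its deposited length of 5432 bases exceeds the 1852 bases of its GENCODE M21 transcript. With GENCODE transcript lengths, an alternative chosen after seeing the data, Pira6 was at 2.42 ± 0.981 RPKM in libraries labelled knock-out and 0.127 ± 0.0522 RPKM in libraries labelled wild type, which is 6th and 7th of 9. By the deposited lengths, the order between Cd300lf and Pira6 under the knock-out label was Sirpb1a, Pilra, Trem1, Cd300a and Siglece. There no 2 neighbours differed beyond their spread (mean ± SD). Within libraries the order was steadier, since each member down to Sirpb1a stood above the next in 4 of 4 of these libraries, and so did Trem1 above Cd300a and Siglece above Pira6, whereas Pilra over Trem1 and Cd300a over Siglece held in 2 of 4. Under the wild-type label it was Siglece, Pilra, Trem1, Sirpb1a and Cd300a, with a gap beyond the spread between Siglece and Pilra, between Trem1 and Sirpb1a, and between Cd300a and Pira6. Siglece was thus 8th of 9 under the knock-out label at 0.952 ± 0.337 RPKM and 4th of 9 under the wild-type label at 0.336 ± 0.0269 RPKM. With GENCODE transcript lengths it was 9th and 4th.

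The balance of activating and inhibitory partners was compared as a ratio within each library, which a common change of both partners leaves as it is. For the SIRP family, Sirpb1a per 100 Sirpa in RPKM was 37.5, 31.4, 39.4 and 36.6 in KO 1, KO 2, KO 4 and KO 5, against 9.11, 15.1, 29.5 and 19.7 in WT 1, WT 2, WT 4 and WT 5. The libraries labelled knock-out lay within a narrow band and those labelled wild type spread more than 3-fold, on 5 to 9 Sirpb1a counts each. On the log2 CPM scale with a prior count of 2, Sirpb1a minus Sirpa averaged -2.88 ± 0.14 in libraries labelled knock-out and -3.64 ± 0.62 in libraries labelled wild type, and the groups overlapped by this measure, though not in RPKM. The difference of 0.76 did not pass a two-sided exact permutation test over the 70 assignments of libraries (p = 0.0571, adjusted over the 2 ratios p = 0.114, smallest possible p = 0.0286). With 2 ratios, that smallest p becomes 0.0571 after adjustment unless both ratios reach it, so the design could hardly pass. The prior count pulls ratios of low counts together, and at 0.5 the difference was 1.01 (exact permutation adjusted p = 0.0571).

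For the PIR family, Pira6 per 100 Pirb in RPKM was 13.6, 11.9, 11.4 and 11.1 in KO 1, KO 2, KO 4 and KO 5, against 8.15, 5.95, 10.7 and 11.1 in WT 1, WT 2, WT 4 and WT 5. These levels rest on the deposited length of Pira6, and with GENCODE lengths they were 37.8 to 46.4 in libraries labelled knock-out and 20.3 to 37.8 in libraries labelled wild type. The values of WT 4 and WT 5 were near those of the libraries labelled knock-out. On the log2 CPM scale Pira6 minus Pirb averaged -2.33 ± 0.14 in libraries labelled knock-out and -2.53 ± 0.37 in libraries labelled wild type, a difference of 0.20 that did not pass (exact permutation, two-sided, p = 0.40 before and after adjustment for the 2 ratios). Without WT 2 that difference was 0.05, and with a prior count of 0.5 it was 0.39 (exact permutation adjusted p = 0.171). No TREM ratio was formed, since Trem1 was the TREM member measured. Other partner pairs are given without a test, also with a prior count of 2. Their log2 ratio differed by 0.04 for Sirpb1b over Sirpa, 0.02 for Pira2 over Pirb and -0.08 for Pira1 over Pirb. Pilrb1 over Pilra was at -1.63 ± 0.35 in libraries labelled knock-out and -1.02 ± 0.44 in libraries labelled wild type, a difference of -0.62 toward the inhibitory partner. Low counts limit these pairs too, since Sirpb1b was at 0.127 to 0.343 CPM in libraries labelled wild type. The log2 fold changes in edgeR were 3.86 for Sirpb1b against 3.56 for Sirpa, and 2.56 for Pilrb1 against 3.29 for Pilra. They were 3.94 for Pira2 and 3.87 for Pira1, against 3.84 for Pirb.

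**Figure D3:**
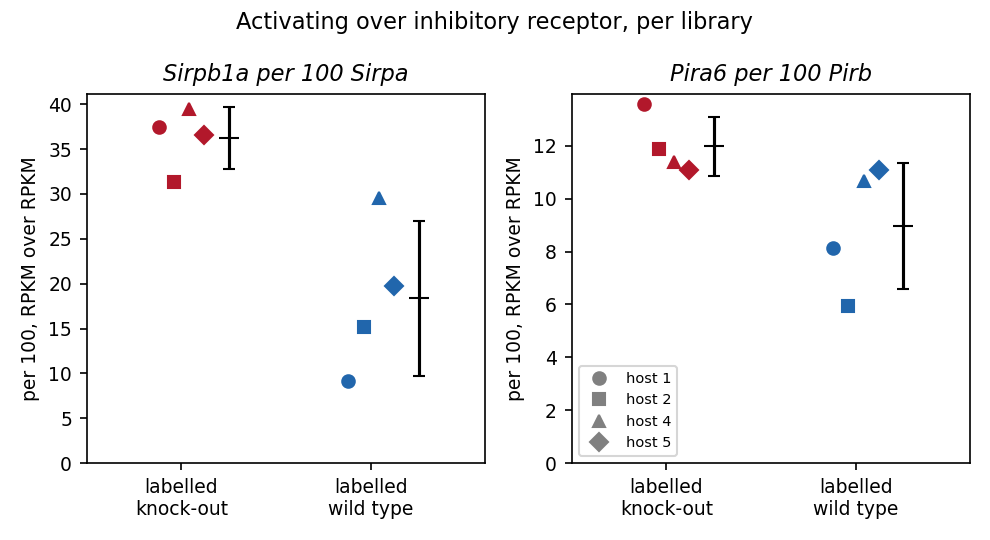
Activating over inhibitory partner within each library, as the RPKM of Sirpb1a per 100 Sirpa (left) and of Pira6 per 100 Pirb (right), with libraries labelled knock-out left of those labelled wild type and mean ± SD beside them. Sirpb1a per 100 Sirpa is 31.4 to 39.4 in libraries labelled knock-out and 9.11 to 29.5 in libraries labelled wild type.

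Set against the macrophage and monocyte markers of the same library, the members were not alike. The mean log2 CPM of the 20 markers was 4.10, 4.76, 5.48 and 5.09 in KO 1, KO 2, KO 4 and KO 5, against 2.43, 2.17, 1.82 and 2.20 in WT 1, WT 2, WT 4 and WT 5, a difference of 2.70. Sirpb1a minus this mean was -2.77 ± 0.15 in libraries labelled knock-out and -4.30 ± 0.52 in libraries labelled wild type, so Sirpb1a differed by 1.53 more than this mean. Pira6 differed by 1.27 more, Pirb by 1.07 more and Sirpa by 0.78 more, in each case with no overlap between the labels. For Cd300a (0.58), Trem1 (0.42), Pilra (0.34) and Cd300lf (0.33) the labels overlapped. Siglece went the other way, at -4.06 ± 0.19 in libraries labelled knock-out and -2.73 ± 0.25 in libraries labelled wild type, a difference of -1.33 with no overlap. These differences have no test, and the marker mean includes genes such as Ccr2 and Cx3cr1 that did not pass between the labels. Such genes lower its difference, and the choice of baseline changes the reading. The markers' median log2 fold change in edgeR was 3.33. Above that median lay Sirpb1a (4.66), Pira6 (4.24), Pirb (3.84), Sirpa (3.56) and Cd300a (3.48). Below it lay Pilra (3.29), Trem1 (3.28), Cd300lf (3.16) and Siglece (1.49).

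**Figure D4:**
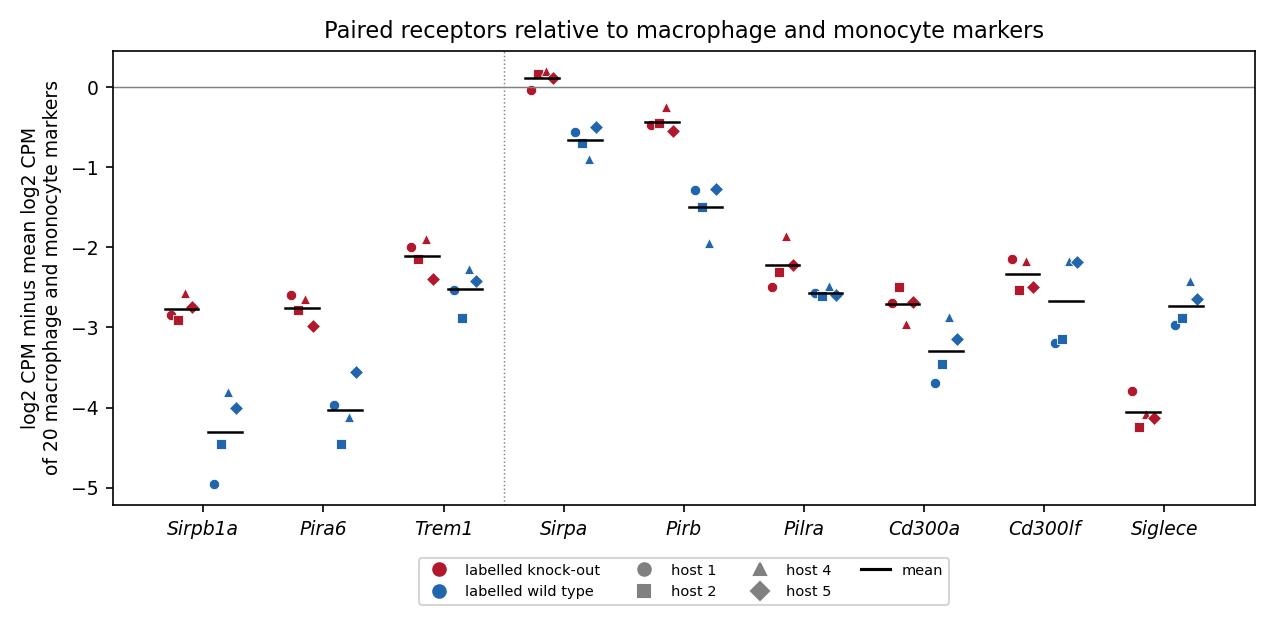
Log2 CPM of each member minus the mean log2 CPM of 20 macrophage and monocyte markers in the same library, with libraries labelled knock-out in red left of those labelled wild type in blue and a line at the mean. Sirpb1a, Pira6, Sirpa and Pirb lie higher under the knock-out label, Siglece lies lower, and the other members overlap. The marker mean includes Ccr2, Cx3cr1 and Cd68, which did not pass the test.

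Receptors listed as relatives mostly moved the same way. Of 37 listed relatives 14 were measured, of which 10 rose, 1 fell and 3 did not pass, and the median log2 fold change was 1.95. The activating receptors Pira2 (log2 fold change 3.94 ± 0.44) and Pira1 (3.87 ± 0.46) rose. Pira2 was at 9.01 ± 4.72 CPM in libraries labelled knock-out and 0.579 ± 0.263 CPM in libraries labelled wild type (SD, n = 4 each). So did Cd300ld (3.64 ± 0.40), Cd300c2 (3.27 ± 0.40), Sirpb1b (3.86 ± 0.48), the sialic acid receptor Siglec1 (4.01 ± 0.53) and Pilrb1 (2.56 ± 0.36), none with an edgeR adjusted p above 0.0017. Smaller rises were those of the collagen receptor Lair1 (0.98 ± 0.15), Treml2 (1.34 ± 0.28) and Clec12a (1.27 ± 0.27). Clec12a is a C-type lectin, listed for its ITIM and not an immunoglobulin-like relative. It lost its call with the description number as a term (edgeR adjusted p = 0.0794) and without WT 1 (0.0517), and Treml2 without WT 4 (0.0544). Cd200r1, the inhibitory receptor for CD200 that T cells also express, fell, with 16.9 to 25.1 CPM in libraries labelled knock-out and 28.2 to 38.6 CPM in libraries labelled wild type (log2 fold change -0.69 ± 0.13, edgeR adjusted p = 0.00927, or 0.0525 with the description number as a term). Siglecg (-1.02 ± 0.42), Lilrb4a (0.15 ± 0.08) and Cd200r4 (0.08 ± 0.11) did not pass.

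The adaptors that activating members need rose with them. Tyrobp was at 18.7 ± 9.11 CPM in libraries labelled knock-out and 1.83 ± 0.729 CPM in libraries labelled wild type (log2 fold change 3.35 ± 0.41, edgeR adjusted p = 0.000782), and Fcer1g rose as well (3.65 ± 0.37, adjusted p = 0.000415). The libraries labelled knock-out held Fcer1g at 19.8 ± 9.48 CPM, and those labelled wild type at 1.57 ± 0.409 CPM. Of 12 adaptor and kinase genes of this pathway given here 8 rose, 1 fell and 3 did not pass, and the median log2 fold change was 2.00. The Src family kinase genes Lyn (3.35 ± 0.36) and Fgr (2.04 ± 0.22), which phosphorylate the motifs, and the kinase genes Syk (3.57 ± 0.37) and Btk (3.65 ± 0.43) were among the 8. DAP10, encoded by Hcst and used by T cells too, was at 64.7 ± 6.71 CPM in libraries labelled knock-out and 62.5 ± 3.46 CPM in libraries labelled wild type and did not pass. Zap70, the relative of Syk in T cells, fell by 0.27 on the log2 scale (SE 0.07, edgeR adjusted p = 0.0304), a call that 7 of the 16 alternatives ended, with adjusted p up to 0.0876 without KO 1.

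The effectors of the inhibitory members are also T cell genes and moved little. Of 10 measured genes 1 rose, 1 fell and 8 did not pass, and the median log2 fold change was -0.06. At an unadjusted p under 0.05, 4 were lower, and DESeq2 called 3 lower, adding Ptk2b (-0.14) and Fyb (-0.13), whose labels did not overlap. Ptpn6 was at 153 ± 28.6 CPM in libraries labelled knock-out and 127 ± 25.8 CPM in libraries labelled wild type (0.27 ± 0.16, edgeR adjusted p = 0.374). Ptpn11 fell to 146 ± 6.62 CPM in libraries labelled knock-out, against 184 ± 11.1 CPM in libraries labelled wild type (-0.33 ± 0.05, adjusted p = 0.00304). The lipid phosphatase gene Inpp5d did not pass (0.05 ± 0.05), and the docking protein gene Dok3, known from macrophages and B cells, rose (1.94 ± 0.30, adjusted p = 0.0027).

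Of 8 measured ligand genes, 2 rose, 0 fell and 6 did not pass. Apoe, a ligand of Trem2 that macrophages make, rose by 2.78 ± 0.35 (edgeR adjusted p = 0.000935), at 78.6 ± 28.1 CPM in libraries labelled knock-out and 11.4 ± 5.03 CPM in libraries labelled wild type. Cd47, the ligand of Sirpa, was at 218 ± 11.7 CPM in libraries labelled knock-out and 188 ± 11.6 CPM in libraries labelled wild type (0.22 ± 0.06, adjusted p = 0.0381), and 8 of the 16 alternatives ended this call, the largest adjusted p being 0.124 without WT 4. The MHC class I genes that Pirb binds, H2-K1 (-0.09 ± 0.06), H2-D1 (-0.02 ± 0.06) and B2m (-0.02 ± 0.06), did not pass, nor did Pglyrp1, a ligand of Trem1 (-0.36 ± 0.11, edgeR adjusted p = 0.0733), which DESeq2 called lower (adjusted p = 0.0223).

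**Figure D5:**
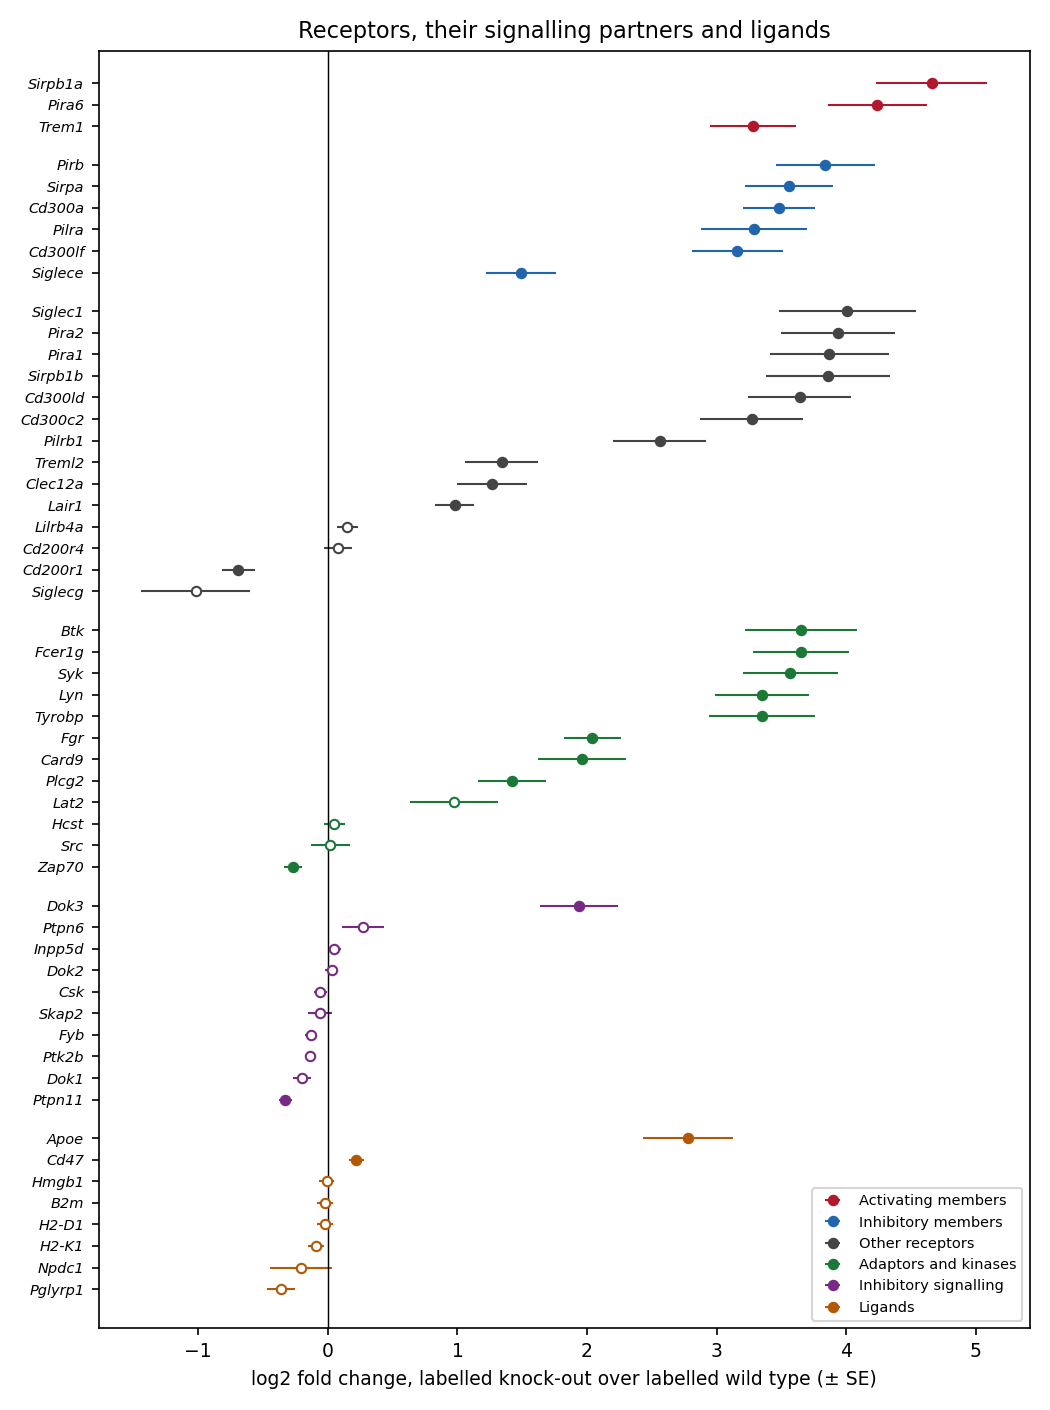
Log2 fold change, libraries labelled knock-out over libraries labelled wild type, with its SE, for the members and their relatives, adaptors and kinases, inhibitory effectors and ligands. Filled points passed edgeR's test (adjusted p below 0.05) and open points did not. All 9 members lie right of 1, whereas 8 of 10 inhibitory effectors and 6 of 8 ligands are open points.

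The genes nearest to the members' mean profile over the 8 libraries, by the root mean square difference of log2 CPM centred on its mean, were Tlr2 (0.116), Clec4e (0.123), Emilin2 (0.141), Tifab (0.145) and Fcgr3 (0.146). Tlr2, a receptor for bacterial lipoproteins, was at 28.5 ± 13.4 CPM in libraries labelled knock-out and 2.66 ± 0.430 CPM in libraries labelled wild type. Clec4e, the lectin receptor Mincle that signals through the Fc receptor gamma chain, was at 29.99 ± 15.5 CPM in libraries labelled knock-out and 2.87 ± 0.646 CPM in libraries labelled wild type. By the same measure Trem1 (0.144) was the member nearest to the mean profile, and Sirpb1a (0.541) and Siglece (0.952) were the farthest.

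The promoter windows of the members were searched for the PU box, GAGGAA on either strand, the core of the sites bound by PU.1. PU.1 is the macrophage transcription factor encoded by Spi1, which was at 8.17 ± 2.81 CPM in libraries labelled knock-out and 0.791 ± 0.112 CPM in libraries labelled wild type (log2 fold change 3.36 ± 0.28, edgeR adjusted p = 0.000145). The window was the 250 bases before the start site that RefSeq's promoter table lists for each gene (GRCm38). That start can differ from the outer end of the gene given above. The windows of Pirb and Pilra lie outside the gene, those of Sirpb1a and Trem1 reach 95 and 26 bases into it, and those of Siglece, Cd300a and Cd300lf lie wholly inside it. Of the 7 members with an entry 6 held at least 1 PU box, and 23.3% of all 32851 windows did (7639). Pirb and Siglece held 3 each, Pilra, Cd300a, Cd300lf and Trem1 held 1 each and Sirpb1a held 0. The longer form GAGGAAGT, which contains the PU box, was in Pirb alone among the members and in 2.44% of all windows. The windows of Pirb (chr7:3720383-3720632, minus strand) and Pilra (chr5:137836279-137836528, minus strand) are shown because both lie outside the gene, 5′ to 3′ with PU boxes in capitals.
Pirb: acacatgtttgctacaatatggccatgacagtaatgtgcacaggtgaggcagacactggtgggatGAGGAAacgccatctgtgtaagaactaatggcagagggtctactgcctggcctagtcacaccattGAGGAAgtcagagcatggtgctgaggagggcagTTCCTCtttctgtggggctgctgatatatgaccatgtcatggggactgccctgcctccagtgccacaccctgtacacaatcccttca
Pilra: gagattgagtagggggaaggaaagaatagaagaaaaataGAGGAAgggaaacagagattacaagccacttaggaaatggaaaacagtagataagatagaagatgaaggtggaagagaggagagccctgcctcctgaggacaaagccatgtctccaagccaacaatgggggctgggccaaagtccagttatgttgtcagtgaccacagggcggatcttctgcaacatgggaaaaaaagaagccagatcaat
A match describes these letters and not a bound site, and the part of PU.1 in the receptor values was not tested.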

How the data were processed

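RNA from CD4 T cells was poly(A) selected, made into stranded TruSeq libraries and read as single reads of 81 bases, per the labels' protocols. STAR and mm10 are named in the submitters' processing notes. Which STAR version, counter, annotation and strand setting were used is not given in the sources used here. The deposited values are raw whole-number counts, with an Entrez identifier, a symbol and a length for each gene. They hold 11354 genes, and the lowest fourth-highest CPM of any gene was 0.987, so low genes had been left out before deposit. No value column was left unused.

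Groups followed the labels. Within a label each library has its own host number, but nothing says that the T cells came from separate donors. The p-values therefore reflect only how these libraries vary, and part of that variation may be technical. No 2 replicates agreed within sampling noise (smallest chi-square per degree of freedom 13.5). Members and gene lists were chosen with earlier results of these data known. filterByExpr kept all 11354 genes. Genes were tested in edgeR 4.0.16 (R 4.3.3) with TMM factors, estimateDisp, glmQLFit and glmQLFTest on the label, with Benjamini-Hochberg adjusted p below 0.05 as a call. SE was derived from the log2 fold change and the square root of F. The procedure was tested on simulated data. RPKM divide CPM by the deposited gene length. Log2 CPM had a prior count of 2. Pair ratios were tested by exact permutation (scipy 1.17.1) and adjusted over the 2 ratios formed instead of the 3 planned, because Trem2 was not analysed here.

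The rule for naming genes took the members, Nlrp6, the 4 genes of smallest p in each list and the 5 genes nearest in profile, and some marker genes it takes are given only in counts. 1 gene was left out of the lists and is not reported here. Other genes of the lists were named for their role or after their values were seen. Alternatives were RLE factors, total library size, no filter, 1 CPM in 4 libraries, limma-voom 3.58.1 with quality weights, DESeq2 1.42.0, the host number as a block, the description number as a term, and leaving out each library. Positions and promoters are RefSeq's and transcripts GENCODE M21's, both on GRCm38.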

Additional observations from a re-analysis of the deposited data

Results flagged for a closer look

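In the 114 groups of 4 libraries screened, 4 values stood far from the others of their label, where chance gives about 1 in 20 groups. None was of a member. The killer lectin receptor gene Klrk1 was at 27.5 CPM in WT 5 and at 6.12 to 7.72 CPM in the other libraries labelled wild type. The epithelial cadherin gene Cdh1 was at 11.8 CPM in WT 5 and at 3.31 to 4.23 CPM in the others of that label. Without WT 5, edgeR called both genes higher in libraries labelled knock-out (log2 fold change 1.13 with adjusted p = 0.0388 for Klrk1, and 1.37 with adjusted p = 0.0051 for Cdh1). The keratin gene Krt18 was at 4.01 CPM in KO 1 and at 2.22 to 2.32 CPM in the other 3 of that label. Krt18 was also at 2.07 CPM in WT 4 and at 3.75 to 3.86 CPM in the other libraries labelled wild type.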

How the results depend on the processing

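All 144 recomputed fold changes, 9 members under 16 alternatives, kept their direction and stayed past the test. The members called numbered 9 in every alternative. Among the fits with 1 library left out, the one without KO 4 gave the lowest fold change of every member, such as 4.32 for Sirpb1a and 1.25 for Siglece on the log2 scale. Over all genes the calls numbered 1140, and 745 with the description number as a term. The genes called lower numbered 436, then 249 with that term and 276 to 509 with 1 library left out, the lowest being 276 without KO 1 and 277 without WT 1. DESeq2 called 1579 genes. The difference in the SIRP ratio ran from 0.51 without WT 1 to 1.01 without WT 4, and that in the PIR ratio from 0.05 without WT 2 to 0.39 with a prior count of 0.5. The tests on all libraries could pass only if both ratios reached the smallest p, and those on fewer libraries could not pass at all. These tests therefore say nothing about stability. With GENCODE transcript lengths the mean RPKM of Pira6 was 2.42 in libraries labelled knock-out and 0.127 in libraries labelled wild type, against 0.826 and 0.0432 by the deposited length.

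With the host number as a replicate block, 1020 genes and 9 members were called, and the largest member adjusted p was 0.0202 for Siglece. Deviations of same-numbered libraries from their label means correlated at -0.138 to 0.256, and not every pair exceeded 0.1, so the numbers were not used as pairs. The labels do not say whether a number marks the same host under both labels. Low counts limit Sirpb1a and Pira6 under the wild-type label, with at most 9 and 13 counts per library.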

Other observations

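A further gene of the SIRP family, annotated as signal-regulatory protein beta 1-like (LOC100038947) and singled out after its values were seen, was at 7.34 ± 4.52 CPM in libraries labelled knock-out and 0.359 ± 0.110 CPM in libraries labelled wild type (SD, n = 4 each, log2 fold change 4.33 ± 0.48, edgeR adjusted p = 0.000512). The LILR family genes Lilr4b and Lilrb4a were abundant under both labels and did not pass. Lilr4b, also singled out after its values were seen, was at 1106 ± 91.7 CPM in libraries labelled knock-out and 1006 ± 67.8 CPM in libraries labelled wild type (0.14 ± 0.07, edgeR adjusted p = 0.286). Lilrb4a was at 599 ± 70.3 CPM in libraries labelled knock-out and 539 ± 23.6 CPM in libraries labelled wild type (edgeR adjusted p = 0.30).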
